A study of Mus musculus with 16 samples.

Results

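The genes described here make the constitutive part of the proteasome, the protease complex that degrades proteins tagged with ubiquitin. They were chosen by name and selected on their level: a symbol of Psma, Psmb, Psmc or Psmd followed by a number, and a mean of at least 1 FPKM (fragments mapped to a gene, scaled by transcript length and library size) over all 16 libraries. The catalytic subunits Psmb5, Psmb6 and Psmb7 and their inducible counterparts Psmb8, Psmb9 and Psmb10 were left out by name. Of 23847 rows, 40 had such a symbol, 6 of these were left out by name and 2 lay under the minimum, which left 32 genes. The lowest of the 32 were Psmc3ip with a mean of 5.66 FPKM and Psmd9 with 6.29 FPKM. Just outside lay Psmb11, the subunit of the thymus proteasome, with 0.165 FPKM, and Psma8, the subunit of the testis proteasome, with 0.0206 FPKM. The name of the group held for 28 of the 32 genes, which are proteasome subunits. Of the other 4, Psmd5, Psmd9 and Psmd10 are assembly chaperones that leave the finished particle, and Psmc3ip is a meiotic recombination factor named for binding Psmc3.

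RNA was sequenced from organoids of C57BL/6 mouse small intestine, which are epithelial cultures, at their day 3. There were 4 groups of 4 libraries each. They were ATG16L1-deficient organoids (dIEC) given 20 ng/ml murine TNF for 2 hours (called dIEC TNFa), organoids with loxP-flanked Atg16l1 (f/f) given TNF in the same way (f/f TNFa), unstimulated dIEC organoids and unstimulated f/f organoids. ATG16L1 belongs to the enzyme complex that attaches LC3 to membranes in autophagy, and f/f is the wild-type group of the study. The sources used here do not name the Cre behind the dIEC line. No label names the animal, culture or batch behind a library, so the p-values rest on the spread among these libraries alone, which may be technical.

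The proteasome is a barrel, the core particle, capped by a regulatory particle. The core is built of outer rings of alpha subunits, which gate the entrance, and inner rings of beta subunits, some of which cut the substrate. In the regulatory particle a ring of ATPases, the Psmc genes, unfolds the substrate and pushes it into the core, while the non-ATPase subunits, the Psmd genes, form the scaffold and bind and remove ubiquitin. Subunits are needed in fixed proportions, and in mammals the transcription factor NFE2L1 raises many of their genes together when proteolysis falls short. Intestinal epithelium also makes the inducible catalytic subunits of the immunoproteasome in inflammation.

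The FPKM of the libraries summed to 494221 to 610125 over all rows, and the depth in reads is unknown, although the steps between low values place the libraries at 0.877 to 1 of the deepest one. Libraries f/f 1, dIEC 4, f/f TNFa 1 and dIEC TNFa 4 stood apart from the other 12 on the component with 10.3% of the variance. Atg16l1 was at 6.74 to 7.63 FPKM in dIEC TNFa libraries against 9.60 to 11.1 FPKM in f/f TNFa libraries, and at 5.20 to 6.41 FPKM in dIEC libraries against 8.37 to 9.37 FPKM in f/f libraries. The gene was thus lower in each dIEC library than in each f/f library of the same treatment (limma log2 difference -0.47, adjusted p = 0.000233 with TNF, and -0.59, adjusted p = 0.000122 without), and the FPKM covers the whole gene, so it does not check the deleted exons. All 5 epithelial markers (Epcam, Cdh1, Krt8, Krt19, Vil1) were kept, with summed levels of 1375 to 2324 FPKM. Of the 5 immune markers 1 was kept, Lyz2, a gene that Paneth cells can also express, with a median of 26.3 FPKM. Ptprc had a median of 0.0512 FPKM, and Cd3e was listed at 0 in 8 of the 16 libraries. Of 5 mesenchymal and endothelial markers only Vim was kept, with a median of 4.13 FPKM.

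On the FPKM scale, which is per length, the 11 core subunits among the 32 genes stood above the 17 regulatory subunits among them. The 7 alpha subunits had mean levels of 139 to 214 FPKM (median 169.7 FPKM) and the 4 beta subunits of 142 to 189 FPKM (median 173 FPKM). The 6 ATPases lay at 59.5 to 117 FPKM (median 85.2 FPKM), the 11 non-ATPase subunits at 42.7 to 84.5 FPKM (median 71.5 FPKM) and the 3 assembly chaperones at 6.29 to 28.7 FPKM. The whole range among these 28 subunits was 5.01-fold. The order does not hold for all proteasome subunits outside the 32. The catalytic core subunit Psmb5 had a mean of 111 FPKM, below the 117 FPKM of the highest ATPase. Psmb6 with 119 and Psmb7 with 179 FPKM kept the order. The lid subunit Shfm1 had 289 FPKM, above each of the 28. Within the alpha subunits Psma6, Psma2 and Psma7 were highest, with 214, 211 and 197 FPKM. The lowest alpha subunits were Psma1 with 139, Psma5 with 147 and Psma3 with 157 FPKM. Among the beta subunits Psmb1 had 189, Psmb3 179, Psmb4 166 and Psmb2 142 FPKM. These levels chose the genes and are given as a description, with no test.

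Among the ATPases the highest mean levels were those of Psmc6 with 117, Psmc1 with 85.9 and Psmc5 with 85.5 FPKM, and the lowest those of Psmc4 with 59.5, Psmc2 with 60.6 and Psmc3 with 84.9 FPKM. Of the non-ATPase subunits, Psmd14, the deubiquitinase of the particle, had 84.5 FPKM, Psmd2, a large scaffold that docks ubiquitin shuttles, 79.9 FPKM, and Psmd7, the partner of Psmd14, 77.9 FPKM. The lowest were the lid subunits Psmd3 with 42.7, Psmd11 with 52.2 and Psmd12 with 56.6 FPKM. The replicates of a group spread by a coefficient of variation of 0.282% to 20.6% over the 32 genes and 4 groups, with the smallest for Psmd6 in f/f TNFa and the largest for Psmb3 in dIEC.

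With TNF, most alpha subunits of the core particle fell in both genotypes, while the regulatory particle held genes that fell and genes that rose. In dIEC, 9 of the 32 genes fell and 6 rose with TNF (dIEC TNFa against dIEC), where 19.8% of the 11097 rows tested were called lower, 33.4% higher and 53.1% in either direction. In f/f, 18 of the 32 fell and 1 rose (f/f TNFa against f/f), where 20.3% of all rows were called lower, 26.9% higher and 47.2% in either direction. Every call is from limma on log2(FPKM + 1) at a Benjamini-Hochberg adjusted p under 0.05 over all 11097 rows, with n = 4 per group. The median log2 change with TNF of the 32 genes was -0.01 in dIEC and -0.17 in f/f, against 0.09 and 0.05 over all rows. The change was above 0 for 15 of the 32 genes in dIEC (62% of all rows) and for 5 in f/f (57.6% of all rows). All 4 TNF libraries lay below all 4 unstimulated ones for 7 of the 32 genes in dIEC (16.3% of all rows) and for 18 in f/f (19.9% of all rows), and above them for 4 genes in dIEC (26.2%) and 1 in f/f (24.1%). The higher and lower calls depended on the scaling: in dIEC, 8 rose and 7 fell after quantile normalization, and 2 rose and 13 fell after median-of-ratios scaling. In f/f, 2 rose and 13 fell after quantile normalization, and 0 rose and 19 fell after median-of-ratios scaling. Over all rows these scalings called 49.5% and 50.9% in dIEC and 46.8% and 47.8% in f/f, in that order. With the library number as a replicate block within genotype, 20 genes were called in dIEC (10 rose, 10 fell), the 15 and also Psma7, Psmc2, Psmc5, Psmd3 and Psmd4, while 70.8% of all rows were called in that fit. The summed level of the 5 immune markers was 24.0 to 28.8 FPKM in dIEC TNFa against 20.0 to 23.5 FPKM in dIEC, and 31.3 to 37.7 FPKM in f/f TNFa against 26.2 to 31.6 FPKM in f/f, and its part in these changes was not tested. In such bulk samples fewer cells of a type and less RNA per cell cannot be told apart.

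**Figure D1:**
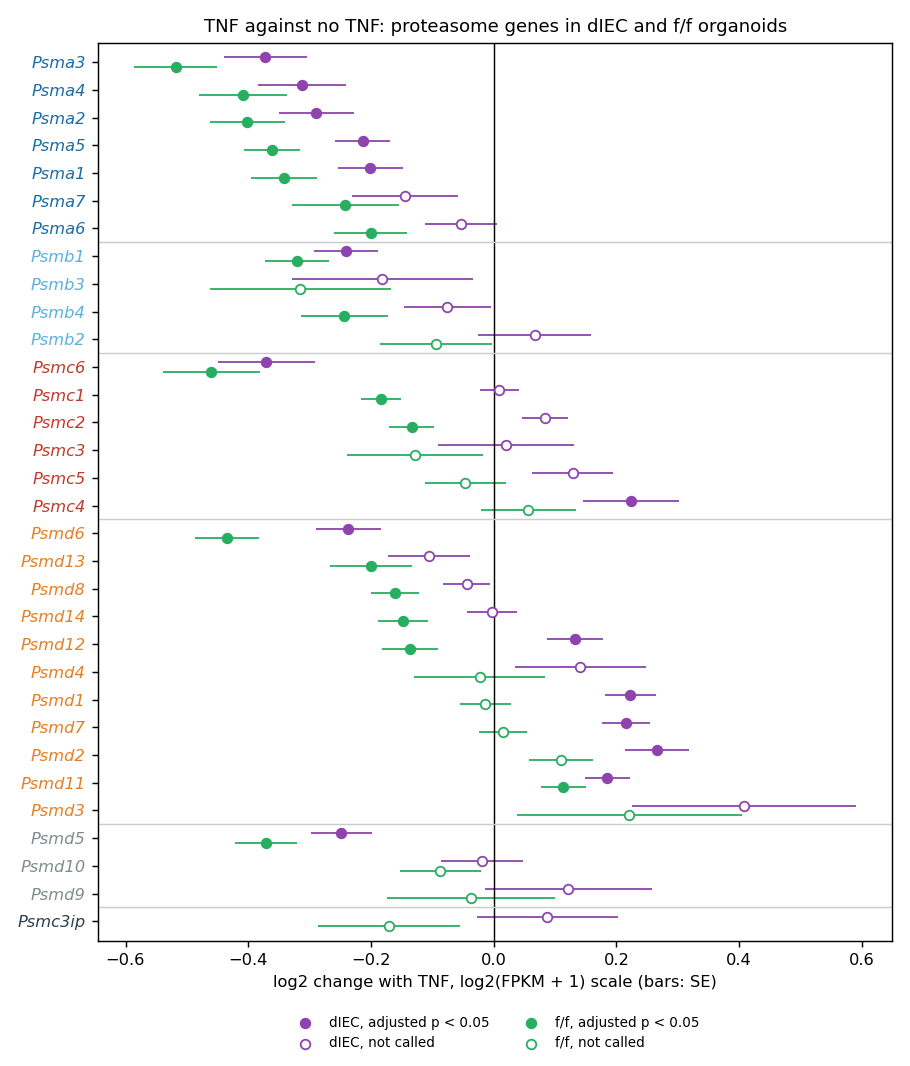
The log2 change with TNF, on the log2(FPKM + 1) scale, of each of the 32 genes in dIEC (dIEC TNFa minus dIEC, upper point of each pair) and in f/f (f/f TNFa minus f/f, lower point), with bars of 1 SE, from 4 libraries per group; filled points are called at adjusted p under 0.05. All 7 alpha subunits (top block) lie below 0 in both genotypes, and each of the 32 points for dIEC lies to the right of the point for f/f.

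Of the 7 alpha subunits, which form the gated outer rings, 5 fell in dIEC and 7 in f/f. Psma3 had 132, 134, 136 and 148 FPKM in dIEC TNFa against 191, 159, 193 and 172 FPKM in dIEC. In f/f it had 137, 126, 120.0 and 128 FPKM with TNF against 202, 175, 179.7 and 177 FPKM without. No library with TNF reached any library without in either genotype, and the log2 change was -0.37 ± 0.068 (SE, adjusted p = 0.000331) in dIEC and -0.52 ± 0.068 (adjusted p = 2.13e-05) in f/f. Psma4, the alpha subunit whose tail keeps the gate shut in yeast, had 149, 145, 152 and 169 FPKM in dIEC TNFa against 198, 175, 201 and 190.2 FPKM in dIEC, and 164, 136, 136 and 138 FPKM in f/f TNFa against 210.4, 183, 186 and 183 FPKM in f/f. Again the groups did not overlap, and Psma4 changed by -0.31 in dIEC (adjusted p = 0.00214) and -0.41 in f/f (adjusted p = 0.000313). Psma2 changed by -0.29 in dIEC and -0.40 in f/f, and its levels were 182 to 206 FPKM in dIEC TNFa against 218 to 258 FPKM in dIEC, and 168 to 191 FPKM in f/f TNFa against 229.6 to 252 FPKM in f/f. Psma5 changed by -0.36 (adjusted p = 1.42e-05) in f/f, where it had 128 ± 2.47 FPKM with TNF and 164 ± 5.23 FPKM without (SD, n = 4 each), and it fell in dIEC too, as did Psma1. Psma1, Psma6 and Psma7 were the other alpha subunits that fell in f/f. In dIEC, Psma6 changed by -0.05 (adjusted p = 0.472) and Psma7 by -0.14 (adjusted p = 0.175), neither of them called. Quantile normalization ended the calls of Psma1 and Psma5 in dIEC and of Psma6 and Psma7 in f/f. The call of Psma7 in f/f also ended without library f/f 1, f/f 2, f/f 3, f/f TNFa 1 or f/f TNFa 3 (adjusted p of 0.0529 to 0.0872).

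Summed over the 7 alpha subunits, the level was 1156 ± 38.9 FPKM in dIEC TNFa and 1349 ± 96.0 FPKM in dIEC, and 1072 ± 30.3 FPKM in f/f TNFa and 1363 ± 59.8 FPKM in f/f (SD, n = 4 each). Summed over the 17 subunits of the regulatory particle among the 32 genes it lay at 1247 to 1286 FPKM in dIEC TNFa and 1176 to 1283 FPKM in dIEC, and at 1115 to 1203 FPKM in f/f TNFa and 1238 to 1277 FPKM in f/f. This sum thus overlapped between dIEC TNFa and dIEC, and not between f/f TNFa and f/f. With the regulatory subunits Shfm1 and Adrm1 added it was 1578 ± 41.0 FPKM in dIEC TNFa and 1591 ± 90.5 FPKM in dIEC, and 1466 ± 63.2 FPKM in f/f TNFa and 1628 ± 39.5 FPKM in f/f, so that the mean in dIEC TNFa was then below and not above that in dIEC. The ratio of the alpha sum to the sum over the 17 was 0.907 ± 0.0434 in dIEC TNFa and 1.09 ± 0.0637 in dIEC, and 0.920 ± 0.0520 in f/f TNFa and 1.08 ± 0.0636 in f/f. Both genotypes thus had a lower ratio with TNF, and the alpha sum of each TNF library was below that of every unstimulated library of its genotype. No test was run on these sums.

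Of the 4 non-catalytic beta subunits, 1 fell in dIEC and 2 in f/f. Psmb1 had 174, 171, 170.0 and 168 FPKM in dIEC TNFa against 212, 193, 222 and 184 FPKM in dIEC, and 164, 174, 167 and 174 FPKM in f/f TNFa against 219.8, 208, 215 and 205 FPKM in f/f. The groups did not overlap in either genotype, and the log2 change was -0.24 ± 0.052 in dIEC (adjusted p = 0.00135) and -0.32 ± 0.052 in f/f (adjusted p = 0.000155). Psmb4 fell in f/f, and its change in dIEC was -0.08 (adjusted p = 0.388). Psmb3 and Psmb2 were not called in either genotype. Psmb3 changed by -0.18 (adjusted p = 0.315) in dIEC and -0.32 (adjusted p = 0.0938) in f/f, with a wide spread of 137 to 225 FPKM among the dIEC libraries, and Psmb2 by 0.07 in dIEC and -0.09 in f/f.

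Of the 6 ATPases, 1 fell and 1 rose in dIEC, and 3 fell and 0 rose in f/f. Psmc6 was the ATPase that fell in both genotypes. It had 101, 95.9, 99.1 and 113 FPKM in dIEC TNFa against 137, 120.5, 137 and 135 FPKM in dIEC, and 114, 89.7, 93.0 and 94.5 FPKM in f/f TNFa against 149, 129, 132 and 128 FPKM in f/f. No library with TNF reached one without, and the log2 change was -0.37 ± 0.079 in dIEC (adjusted p = 0.00118) and -0.46 ± 0.079 in f/f (adjusted p = 0.000251). Psmc4 had 65.7, 66.9, 68.7 and 60.4 FPKM in dIEC TNFa against 62.4, 57.4, 55.8 and 48.6 FPKM in dIEC, groups that overlap, and rose by 0.22 ± 0.078 (adjusted p = 0.0251). In f/f the change of Psmc4 was 0.06 (adjusted p = 0.577). The call of Psmc4 ended without dIEC 4, dIEC TNFa 1, dIEC TNFa 2 or dIEC TNFa 3 (adjusted p of 0.0505 to 0.0806). Psmc1 and Psmc2 fell in f/f, and their changes in dIEC were 0.01 (adjusted p = 0.827) and 0.08 (adjusted p = 0.0707). Psmc3 and Psmc5 were not called in either genotype.

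Of the 11 non-ATPase subunits, 5 rose and 1 fell in dIEC, and 1 rose and 5 fell in f/f. Psmd2 had 91.6, 88.9, 91.6 and 85.7 FPKM in dIEC TNFa against 74.3, 78.4, 71.5 and 72.5 FPKM in dIEC, with no overlap, and rose by 0.27 ± 0.052 (adjusted p = 0.0006). Psmd1, the other large scaffold subunit, had 68.0, 66.4, 68.2 and 71.4 FPKM in dIEC TNFa against 57.5, 59.3, 54.8 and 62.9 FPKM in dIEC. It rose by 0.22 ± 0.042 (adjusted p = 0.00041), and all 4 libraries with TNF lay above the 4 without. Psmd7 had 86.1, 89.0, 86.0 and 83.0 FPKM in dIEC TNFa against 73.3, 77.5, 72.7 and 72.2 FPKM in dIEC, again with no overlap, and rose by 0.22 ± 0.039 (adjusted p = 0.000318). The changes of these genes in f/f were 0.11 for Psmd2, -0.01 for Psmd1 and 0.02 for Psmd7, none of them called.

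Psmd11, a lid subunit, was the gene that rose in both genotypes. It had 57.2, 53.5, 56.5 and 57.4 FPKM in dIEC TNFa against 49.5, 50.4, 46.9 and 50.1 FPKM in dIEC, and 56.6, 52.6, 53.8 and 52.1 FPKM in f/f TNFa against 49.8, 49.5, 49.3 and 49.8 FPKM in f/f. Both pairs of groups were apart, with a log2 change of 0.19 ± 0.037 in dIEC (adjusted p = 0.000732) and 0.11 ± 0.037 in f/f (adjusted p = 0.0205). The call in f/f ended without f/f TNFa 1 (adjusted p = 0.0558), and both calls ended under median-of-ratios scaling, as did those of Psmd1, Psmd12 and Psmc4 in dIEC. Psmd6, another lid subunit, fell in both genotypes. It had 68.7, 68.4, 64.6 and 76.1 FPKM in dIEC TNFa against 85.6, 75.2, 82.5 and 84.7 FPKM in dIEC, groups that overlap at 1 library each, and 63.6, 63.4, 63.6 and 63.2 FPKM in f/f TNFa against 91.5, 82.7, 85.6 and 84.9 FPKM in f/f. Its log2 change was -0.24 ± 0.053 in dIEC (adjusted p = 0.00164) and -0.43 ± 0.053 in f/f (adjusted p = 1.04e-05). In f/f, Psmd8, Psmd12, Psmd13 and Psmd14 fell too. The call of Psmd13 ended without f/f 2, f/f 3 or f/f TNFa 1 (adjusted p of 0.0506 to 0.0664). Quantile normalization ended the calls of Psmd8, Psmd14 and Psmc2 in f/f and of Psmd12 in both genotypes.

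Psmd12, a lid subunit as well, was the gene called in opposite directions. It had 61.2, 61.2, 59.5 and 64.3 FPKM in dIEC TNFa against 56.0, 52.4, 55.8 and 60.3 FPKM in dIEC, and 53.7, 48.8, 52.0 and 52.9 FPKM in f/f TNFa against 58.8, 55.1, 57.1 and 57.2 FPKM in f/f. With TNF it rose by 0.13 ± 0.046 in dIEC (adjusted p = 0.0245), where library dIEC 4 overlaps the TNF group, and changed by -0.14 ± 0.046 in f/f (adjusted p = 0.0236), where the groups do not overlap. The rise was not called without dIEC 2 (adjusted p = 0.079) or dIEC TNFa 4 (adjusted p = 0.0632), and the fall not without f/f 1 (adjusted p = 0.065) or f/f TNFa 2 (adjusted p = 0.0794). Of the 3 assembly chaperones, Psmd5 fell in both genotypes, to 26.2 ± 1.25 FPKM in dIEC TNFa against 31.3 ± 1.31 FPKM in dIEC and to 24.8 ± 0.356 FPKM in f/f TNFa against 32.4 ± 2.33 FPKM in f/f (SD, n = 4 each). Its log2 change was -0.25 in dIEC and -0.37 in f/f. Psmd9, Psmd10 and Psmc3ip were not called in either genotype.

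Set side by side, all 9 genes that fell in dIEC also fell in f/f, namely Psma1 to Psma5, Psmb1, Psmc6, Psmd5 and Psmd6. There were 8 genes that fell in f/f and were not called in dIEC, 4 that rose in dIEC and were not called in f/f, 1 that rose in both and 9 called in neither. These 2 comparisons share no library. Over all rows 53.1% were called in dIEC and 47.2% in f/f, and the overlap of those calls was not counted. The overlap among the 32 genes thus has no baseline. A call in one genotype and not in the other does not by itself show a difference, which is tested further on. Genes of GC-richer transcripts tended to higher changes with TNF, among the 32 genes (Spearman rho with GC content 0.429 in dIEC and 0.412 in f/f, across genes) as among 10406 rows with a known transcript (0.312 in dIEC and 0.352 in f/f). Genes are not independent replicates, and the part of GC content in the changes was not tested.

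**Figure D2:**
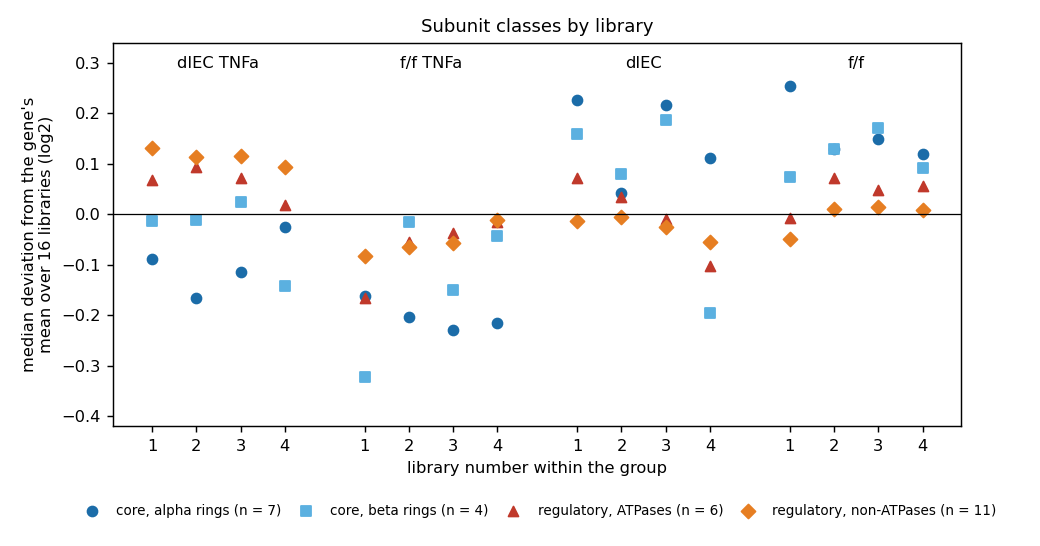
The median deviation of each subunit class from its genes' means over 16 libraries (log2 scale, 1 symbol per class and library), by library number within the groups dIEC TNFa, f/f TNFa, dIEC and f/f. The alpha subunits lie below 0 in all 8 TNF libraries and above 0 in all 8 unstimulated ones, while the non-ATPase subunits lie highest in the 4 dIEC TNFa libraries.

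With TNF present, some genes of the regulatory particle were higher in dIEC than in f/f. Of the 32 genes 5 were higher in dIEC TNFa than in f/f TNFa and 0 lower, where 3.79% of all rows were called higher, 2.7% lower and 6.5% in either direction. At an unadjusted p under 0.05, 11 were higher and 0 lower. The share of all rows at this threshold was not counted, here or for the unadjusted counts below. These counts thus have no baseline. The 5 were the ATPases Psmc1 and Psmc2 and the non-ATPase subunits Psmd1, Psmd7 and Psmd12, so that 0 of the 11 core subunits, 2 of 6 ATPases and 3 of 11 non-ATPase subunits were called. By class the median difference was 0.14 for the ATPases and 0.12 for the non-ATPase subunits. It was 0.10 for the alpha and 0.09 for the beta subunits. All 32 log2 differences were above 0, as were 55.4% of those of all rows, but without library f/f TNFa 1 the number was 25 of 32. The median difference of the 32 was 0.10 against 0.01 over all rows. For 12 of the 32 genes all 4 dIEC TNFa libraries lay above all 4 f/f TNFa libraries (8.64% of all rows), and for 0 below them (5.24%). The summed level of the 5 immune markers, nearly all of it Lyz2, was 24.0 to 28.8 FPKM in dIEC TNFa against 31.3 to 37.7 FPKM in f/f TNFa, and its part in these differences was not tested.

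Psmd12 had 61.2, 61.2, 59.5 and 64.3 FPKM in dIEC TNFa against 53.7, 48.8, 52.0 and 52.9 FPKM in f/f TNFa, a log2 difference of 0.24 ± 0.046 (SE, adjusted p = 0.00373). Psmd1 had 68.0, 66.4, 68.2 and 71.4 FPKM in dIEC TNFa against 58.1, 57.2, 58.6 and 60.6 FPKM in f/f TNFa, a difference of 0.22 ± 0.042 (adjusted p = 0.00375). In both genes the lowest dIEC TNFa library stood above the highest f/f TNFa library. Psmd7 had 86.1, 89.0, 86.0 and 83.0 FPKM in dIEC TNFa against 74.7, 76.7, 74.9 and 78.6 FPKM in f/f TNFa (difference 0.17 ± 0.039, adjusted p = 0.0136). Psmc2, an ATPase, had 63.9, 63.7, 61.3 and 65.1 FPKM in dIEC TNFa against 54.6, 55.2, 58.2 and 58.7 FPKM in f/f TNFa (difference 0.16 ± 0.037, adjusted p = 0.0157). Psmc1, the ATPase whose tail opens the gate of the core in yeast, had 89.4, 89.0, 85.8 and 86.9 FPKM in dIEC TNFa against 77.0, 80.1, 78.5 and 80.1 FPKM in f/f TNFa (difference 0.15 ± 0.032, adjusted p = 0.00923). The groups were apart in all 5 genes. The call of Psmc2 ended without f/f TNFa 2 (adjusted p = 0.0526) and that of Psmd7 without dIEC TNFa 2 (adjusted p = 0.0501). After quantile normalization 0 of the 32 genes were called, with adjusted p of 0.0629 to 0.120 for the 5, and after median-of-ratios scaling 3 of 32, among them Psmd1 and Psmd7. Over all rows 6.03% were called after quantile normalization and 6.42% after median-of-ratios scaling. Without the 4 libraries that stood apart 8 were called, among them all 5 and the alpha subunit Psma6, where 13.6% of all rows were called. With sample weights 13 were called, among them the core subunits Psma4, Psma5 and Psma6, where 23% of all rows were called. With a term for these 4 libraries 12 were called, among them Psma6 and Psmb2, where 17.5% of all rows were called. In the fit of all 16 libraries without weights or this term, the core subunit of smallest adjusted p was Psma6. It had 217 ± 12.9 FPKM in dIEC TNFa and 192 ± 7.96 FPKM in f/f TNFa (difference 0.18, adjusted p = 0.094).

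**Figure D3:**
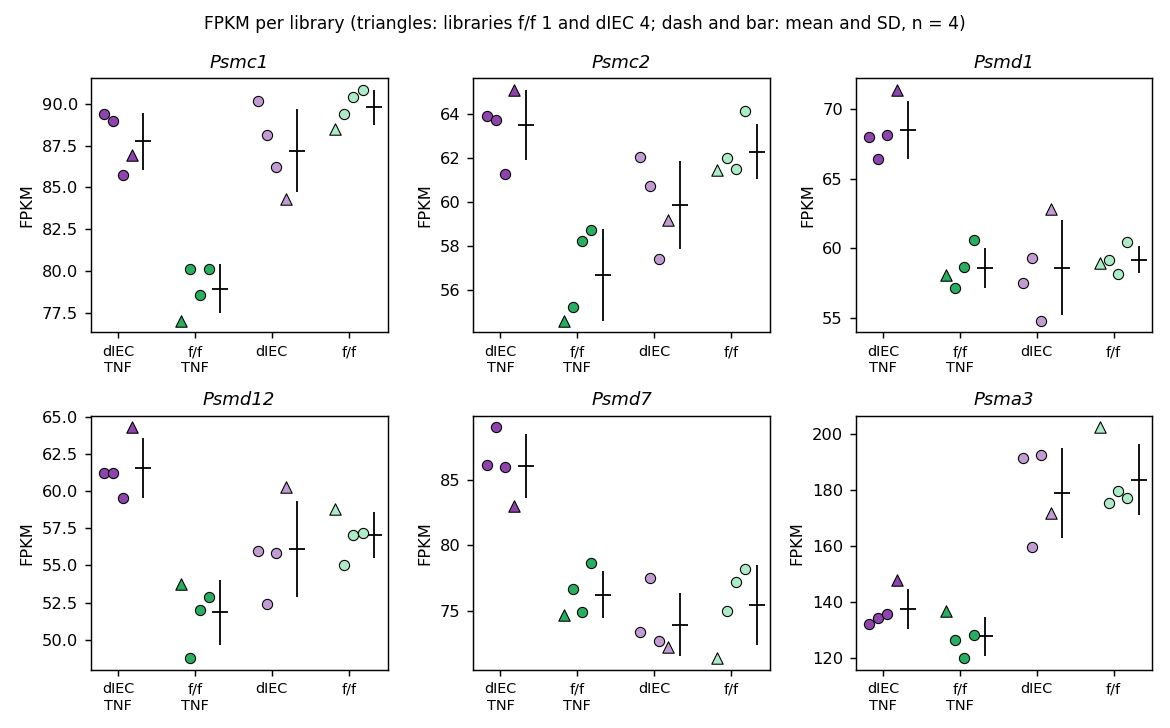
FPKM per library of the 5 genes called higher in dIEC TNFa than in f/f TNFa and of Psma3, in the groups dIEC TNFa, f/f TNFa, dIEC and f/f, with the mean and SD of each group (n = 4) as a dash and bar; the vertical axes do not start at 0. In Psmc1, Psmc2, Psmd1, Psmd12 and Psmd7 each dIEC TNFa library lies above each f/f TNFa library, while Psma3 is lower in all TNF libraries of both genotypes.

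Without TNF, no difference between dIEC and f/f was called: 0 of the 32 genes passed the test in limma, where 2.32% of all rows did (1.54% higher, 0.784% lower), and 0 had an unadjusted p under 0.05. The 3 smallest adjusted p were those of Psmc3ip, which had 5.62, 5.47, 5.40 and 4.27 FPKM in dIEC against 5.33, 6.56, 6.59 and 6.82 FPKM in f/f (log2 difference -0.24 ± 0.12, adjusted p = 0.483), of Psmc2 (-0.06, adjusted p = 0.727) and of Psmd6 (-0.07, adjusted p = 0.795). With sample weights, or with a term for the 4 libraries that stood apart, 1 gene was called lower in dIEC, Psmc3ip. The differences ran from -0.24 to 0.03, with a median of -0.04 against -0.02 over all rows. The number of the 32 genes above 0 was 4 with all libraries (41.3% of all rows were above 0), and it was 15 without dIEC 4 and 8 without dIEC 2. The groups overlapped in all 32 genes, while 4.05% of all rows had every dIEC library above every f/f library and 2.97% had every one below.

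**Figure D4:**
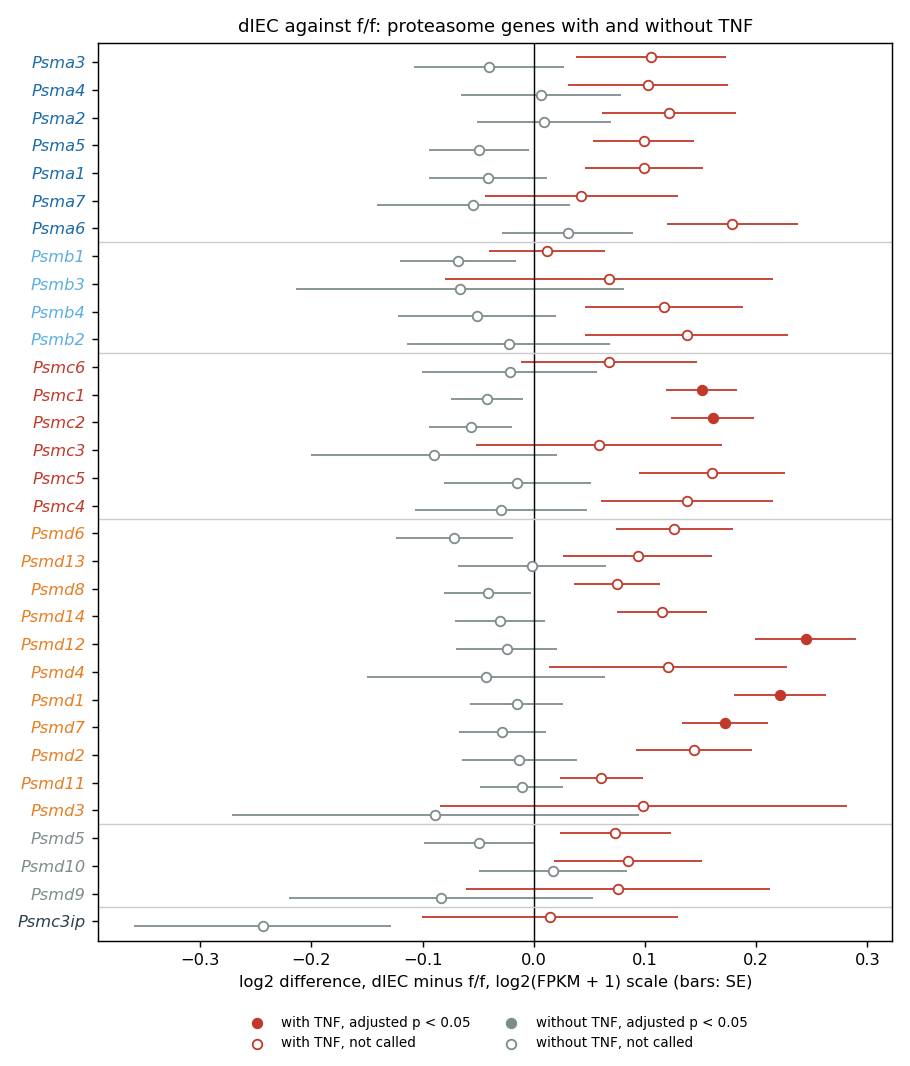
The log2 difference between dIEC and f/f, on the log2(FPKM + 1) scale, of each of the 32 genes with TNF (upper point of each pair) and without TNF (lower point), with bars of 1 SE, from 4 libraries per group; filled points are called at adjusted p under 0.05. The 5 filled points belong to genes of the regulatory particle with TNF, and no point without TNF is filled.

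The test of the difference itself, the TNF response in dIEC minus that in f/f, called 4 of the 32 genes, all higher in dIEC, where 1.39% of all rows were called higher, 1.9% lower and 3.29% in either direction. At an unadjusted p under 0.05, 8 of the 32 were higher and 0 lower, again without a count over all rows. The 4 called were Psmd12 (difference of log2 changes 0.27 ± 0.065, adjusted p = 0.0348), Psmd1 (0.24 ± 0.059, adjusted p = 0.0399), Psmc2 (0.22 ± 0.053, adjusted p = 0.0357) and Psmc1 (0.19 ± 0.046, adjusted p = 0.0313). This test uses the libraries of the earlier comparisons, so the same values stand behind both. Psmc1 had 87.8 ± 1.72 FPKM in dIEC TNFa and 87.2 ± 2.51 FPKM in dIEC, against 78.9 ± 1.49 FPKM in f/f TNFa and 89.8 ± 1.04 FPKM in f/f (SD, n = 4 each). It thus fell in f/f and was not called in dIEC. Psmd1 had 68.5 ± 2.09 FPKM in dIEC TNFa and 58.6 ± 3.39 FPKM in dIEC, against 58.6 ± 1.44 FPKM in f/f TNFa and 59.2 ± 0.977 FPKM in f/f. It rose in dIEC and was not called in f/f. Psmc2 had 63.5 ± 1.60 FPKM in dIEC TNFa and 59.8 ± 2.00 FPKM in dIEC, against 56.7 ± 2.08 FPKM in f/f TNFa and 62.3 ± 1.25 FPKM in f/f. All 32 differences were above 0, against 60.6% of those of all rows, with a median of 0.15 against 0.03, and 30 were above 0 without the 4 libraries that stood apart. The core subunits had differences of 0.08 to 0.17 and none was called.

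These 4 calls depended on single libraries. The number called was 0 without f/f 3, f/f 4, dIEC 3, dIEC TNFa 1 or dIEC TNFa 2, 1 without f/f 2, dIEC 2, f/f TNFa 1, f/f TNFa 2, f/f TNFa 3 or dIEC TNFa 4, and 2 without dIEC 1. Without f/f 1 the number was 3, of which Psmc1 and Psmc2 were among the 4, and Psmd1 and Psmd12 were not called (adjusted p = 0.0568 and 0.0614). Psmd1 lost its call in 14 of 16 such fits (adjusted p up to 0.0910), Psmd12 in 12 (up to 0.0732), Psmc2 in 10 (up to 0.0840) and Psmc1 in 8 (up to 0.0760). Over all rows, 240 to 450 were called in these fits with 1 library left out. Quantile normalization and median-of-ratios scaling each left 0 of the 32 called, where 3.31% and 3.63% of all rows were called. The replicate block within genotype called 6, the 4 and also Psmc5 and Psmd7, where 11.1% of all rows were called. In all of these fits the 4 differences kept their sign, and they ranged from 0.18 to 0.30 over the fits with 1 library left out.

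The promoters shown are those of the 4 genes called for the difference of responses, and of Psma3, the gene that fell most with TNF in f/f. Each is RefSeq sequence of GRCm38.p6, from 250 bases before to 50 after the RefSeq start, in the direction of the gene. All are on the plus strand. CCGGAAG on either strand (read as CTTCCGG on the other), the core of many ETS factor motifs, is in capitals. The GENCODE vM21 annotation starts Psmd1 at chr1:86064387, near the beginning of its window. By that start most of the Psmd1 window lies inside the gene.
Psmc1, chr12:100109952-100110251: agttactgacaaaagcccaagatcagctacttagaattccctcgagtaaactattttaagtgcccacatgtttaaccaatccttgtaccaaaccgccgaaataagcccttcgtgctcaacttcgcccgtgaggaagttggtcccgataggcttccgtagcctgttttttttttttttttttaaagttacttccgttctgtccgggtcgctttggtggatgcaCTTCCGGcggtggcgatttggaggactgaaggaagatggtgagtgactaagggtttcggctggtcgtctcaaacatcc
Psmc2, chr5:21785025-21785324: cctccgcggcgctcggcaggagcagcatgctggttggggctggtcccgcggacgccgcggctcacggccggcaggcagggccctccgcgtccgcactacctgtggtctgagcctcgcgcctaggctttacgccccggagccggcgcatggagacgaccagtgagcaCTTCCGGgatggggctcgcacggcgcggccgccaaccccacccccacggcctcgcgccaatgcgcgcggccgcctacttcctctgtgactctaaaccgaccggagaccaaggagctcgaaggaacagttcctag
Psmd1, chr1:86064369-86064668: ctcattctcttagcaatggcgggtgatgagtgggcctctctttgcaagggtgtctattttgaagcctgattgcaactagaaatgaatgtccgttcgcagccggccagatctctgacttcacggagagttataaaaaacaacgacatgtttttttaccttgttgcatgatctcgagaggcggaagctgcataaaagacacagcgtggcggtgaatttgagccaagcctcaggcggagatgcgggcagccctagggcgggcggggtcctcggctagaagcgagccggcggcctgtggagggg
Psmd12, chr11:107479278-107479577: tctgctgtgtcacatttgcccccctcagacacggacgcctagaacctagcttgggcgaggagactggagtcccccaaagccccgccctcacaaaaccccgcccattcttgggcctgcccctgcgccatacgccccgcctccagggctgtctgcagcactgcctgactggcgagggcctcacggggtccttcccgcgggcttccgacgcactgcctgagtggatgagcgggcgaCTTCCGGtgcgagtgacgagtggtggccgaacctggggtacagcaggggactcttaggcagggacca
Psma3, chr12:70974373-70974672: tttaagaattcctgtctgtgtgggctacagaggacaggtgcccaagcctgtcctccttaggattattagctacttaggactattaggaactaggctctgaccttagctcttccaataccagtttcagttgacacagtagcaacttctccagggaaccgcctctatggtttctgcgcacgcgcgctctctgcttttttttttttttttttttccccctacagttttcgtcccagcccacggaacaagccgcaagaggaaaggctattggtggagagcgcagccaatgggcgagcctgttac

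A promoter of this kind was at hand for 27 of the 32 genes. CCGGAAG, searched on both strands, was in 10 of the 27 (37.0%), against 19.9% of the promoters of 8186 kept rows and 9.12% of 27025 promoters in all. By class it was in 3 of 5 ATPases and 6 of 9 non-ATPase subunits, and in 0 of 7 alpha and 0 of 2 beta subunits. The remaining gene of the 10 was Psmc3ip, which is not a proteasome gene. The motif stood in Psmc1, Psmc2 and Psmd12 and not in the window of Psmd1, which holds little sequence before the GENCODE start. It also stood in Psmc6 and Psmd6, which fell with TNF in both genotypes. CCAAT, the box bound by NF-Y, was in 12 of 27 (44.4%), against 39.8% of kept rows. By class it was in 5 of 7 alpha, 1 of 2 beta, 2 of 5 ATPase and 2 of 9 non-ATPase subunits. Of the promoters shown, those of Psmc1, Psmc2 and Psma3 held it. TGACNNNGC, the element bound by NFE2L1 and NFE2L2, was in 3 of 27 (11.1%), against 15.3% of kept rows. These were Psmd12, Psmc6 and Psmd9. The 3 motifs were searched separately and could overlap. A match is a description of these 300 bases and not a binding site.

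The other genes of the pathway were 43, of which 6 were catalytic subunits. Of the constitutive catalytic subunits, Psmb7, which carries the trypsin-like site, fell with TNF in f/f, with a log2 change of -0.29 (adjusted p = 0.000261), and its change in dIEC was -0.13 (adjusted p = 0.0435), a call that ended in 8 of the 16 fits without 1 library. Psmb5 and Psmb6 were not called. Of the immunoproteasome subunits Psmb9 rose with TNF in dIEC, to 19.6 ± 3.86 FPKM in dIEC TNFa against 12.2 ± 2.25 FPKM in dIEC (log2 change 0.64, adjusted p = 0.0101). In f/f, Psmb8 and Psmb9 were called higher, calls that ended in 4 and 5 of the 16 fits without 1 library. Psmb8 was not called in dIEC.

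Of the remaining 37 genes, 13 rose and 5 fell with TNF in dIEC, and 6 rose and 7 fell in f/f. Over all rows 33.4% rose and 19.8% fell in dIEC, and 26.9% rose and 20.3% fell in f/f, so the shares among the 37 were near or below those of all rows. Nfe2l1, the transcription factor that induces proteasome genes, had 33.4 ± 2.90 FPKM in dIEC TNFa and 21.2 ± 1.96 FPKM in dIEC, and 32.2 ± 3.44 FPKM in f/f TNFa and 20.4 ± 2.50 FPKM in f/f (SD, n = 4 each), a log2 change of 0.63 in dIEC (adjusted p = 8.17e-05) and 0.63 in f/f (adjusted p = 0.000105). Zfand2a, which binds the proteasome in arsenite-stressed cells, rose by 0.64 in dIEC and 0.45 in f/f. Pomp, the maturation factor of the core, changed by -0.28 in dIEC and -0.38 in f/f, and Psmg1, which helps to build the alpha ring, by -0.17 in dIEC and -0.26 in f/f. Both fell in both genotypes. Nploc4, a cofactor of the unfoldase VCP, rose by 0.32 in dIEC and 0.17 in f/f, Ubqln1, a ubiquitin shuttle, by 0.27 in dIEC and 0.24 in f/f, and Uba1, the ubiquitin-activating enzyme, by 0.27 in dIEC and 0.23 in f/f. Shfm1, a lid subunit of the regulatory particle, fell in both genotypes, with a log2 change of -0.32 in dIEC and -0.35 in f/f, and its call in dIEC ended without dIEC 3 (adjusted p = 0.0557). The proteasome-bound thioredoxin-like protein Txnl1 and the ubiquitin fusion gene Rps27a fell in both genotypes too. Further genes that rose in dIEC were Psme3, Psmf1, Adrm1, Usp14, Nfe2l2, Vcp, Rad23b and Ubqln4, while Psme2 and Uchl5 fell in f/f. Of these, Psme3, Usp14 and Rad23b kept their calls without any 1 library and lost them under median-of-ratios scaling, while Psme2 kept its call under every alternative.

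Between the genotypes with TNF, 4 of the 37 genes were higher in dIEC TNFa than in f/f TNFa and 0 lower, against 3.79% of all rows higher and 2.7% lower. Psme1 and Psme2, the subunits of the activator that opens the core without the regulatory particle, had 103 ± 7.06 and 183 ± 6.02 FPKM in dIEC TNFa, against 81.5 ± 6.34 and 154 ± 7.24 FPKM in f/f TNFa. The log2 differences were 0.34 (adjusted p = 0.00456) and 0.26 (adjusted p = 0.00877), and both calls held without any 1 library. Usp14, a deubiquitinase on the regulatory particle, and Nfe2l2 were called too (0.22 and 0.20, adjusted p = 0.0467 and 0.0313), and those calls ended in 14 and 6 of the 16 fits without 1 library. Without TNF, 0 of all 43 genes were called and 3 had an unadjusted p under 0.05, all higher in dIEC. Among the smallest adjusted p were those of Psmb8 (0.48, adjusted p = 0.0823) and Psme2 (0.13, adjusted p = 0.353). For the difference of the TNF responses the count was again 0 of 43 in limma, with 3 at an unadjusted p under 0.05, namely Usp14 (0.25, adjusted p = 0.166), Psmb7 (0.16, adjusted p = 0.323) and Psme1 (0.21, adjusted p = 0.338).

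The 4 libraries that stood apart differed from the other 3 of their groups in most of the 32 genes. In these libraries 16 genes were lower than the mean of the other 3 in all 4 groups, 7 were higher in all 4 and 9 were mixed. This count was not made over all rows. The mean shift ran from -0.54 for Psmd3 to 0.19 for Psmc6 on the log2 scale. Psmd3, a lid subunit, had 50.4, 54.9, 55.5 and 35.6 FPKM in dIEC TNFa, 32.7, 53.4, 47.1 and 50.3 FPKM in f/f TNFa, 39.3, 41.8, 37.8 and 27.6 FPKM in dIEC and 29.9, 45.7, 42.2 and 38.3 FPKM in f/f, and the lowest value of each group was that of the library that stood apart. The shift followed the GC content of the longest transcript (Spearman rho -0.811 across the 32 genes, which share these libraries). It was not particular to the 32 genes. Across 10406 rows, each library's deviation from the gene means had a rho with GC content of -0.707 to -0.388 in these 4 libraries. The other 12 had -0.306 to 0.625. Psmd3, at 55.4% GC, was among the richest and Psmc6, at 37.0% GC, the poorest. Without the 4 libraries that stood apart, 22 genes were called in dIEC and 23 in f/f with TNF, among them all 15 and all 19 that were called with them. Over all rows 69.8% were called in dIEC and 62% in f/f without these libraries.

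**Figure D5:**
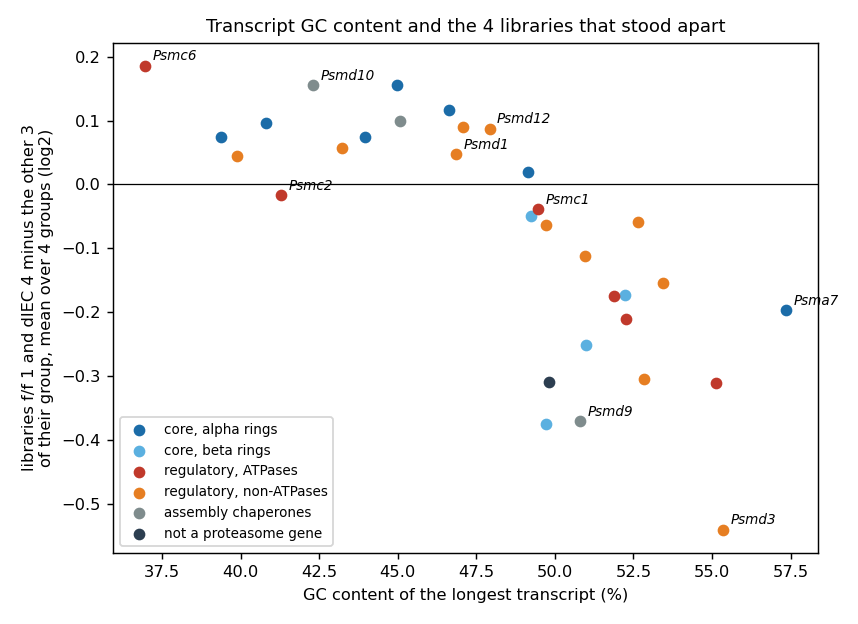
The mean log2 shift of libraries f/f 1, dIEC 4, f/f TNFa 1 and dIEC TNFa 4 from the other 3 of their group (vertical axis) against the GC content of the longest transcript in % (horizontal axis), 1 point per gene for the 32 genes, coloured by class. GC-rich genes such as Psmd3 (55.4% GC, shift -0.54) lie low and GC-poor genes such as Psmc6 (37.0% GC, shift 0.19) lie high.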

How the data were processed

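RNA sequencing was analysed from 1 deposited table of FPKM, made by the authors per gene and library. Per the submitters' processing notes, the tools were TopHat2 2.1.1, Cufflinks 2.2.1 and Cuffdiff, and the build was mm10. The treatment of strand and of reads shared by genes was not given in the sources used here. All per-sample FPKM columns were used (0 left out), and the authors' columns of p-values were not used. Depth is unknown, so no counting interval is given.

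A minimum mean of 1 FPKM left 11097 of 23847 rows. limma 3.58.1 (R 4.3.3) fitted log2(FPKM + 1), which understates the change of low genes, with 1 mean per group over 16 libraries and a mean-variance trend (12 residual and 2.52 prior degrees of freedom), two-sided, with Benjamini-Hochberg adjustment over all rows, called at adjusted p under 0.05. SE is that of a log2 change and SD that of FPKM. The test was tried on simulated data. Libraries of dIEC and dIEC TNFa with the same number deviated together (correlation 0.118 to 0.419, 4 of 4 pairs over 0.1), those of f/f and f/f TNFa in 3 of 4 pairs (-0.0296 to 0.321), and those of different genotype in 1 of 4 pairs. No label says what the number marks, so it was fitted as a replicate block only in alternatives.

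The genes, lists and named genes were chosen with earlier results of these data known. Named were all called genes (values for the 7 largest rises and falls where more than 14 were called), the 3 of smallest adjusted p where none was, and the 3 highest and lowest of each class, except that some genes outside the 32 are counted but not reported here by name. Alternatives were a pseudocount of 5, no minimum, quantile and median-of-ratios scaling, sample weights, replicate blocks, handling of 4 libraries and leaving out each library. Positions, lengths and GC content are from GENCODE vM21 (mm10) and promoters from RefSeq (GRCm38.p6).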

Additional observations from a re-analysis of the deposited data

Results flagged for a closer look

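A library far from the other 3 of its group was found in 16 of 128 groups tested (32 genes in 4 groups), by the gap to the nearest library as a share of the group's range, above Dixon's critical value. Chance flags about 1 in 20 groups, and the share over all rows was not counted. Of the 16, 15 were in the 4 libraries that stood apart. In library dIEC TNFa 4 the share was 0.972 for Psma7, 0.898 for Psmd13, 0.869 for Psmd4 and 0.830 for Psmd14. In f/f TNFa 1 it was 0.926 for Psma4, 0.879 for Psmc3 and 0.860 for Psmc5. In dIEC 4 it was 0.918 for Psmc3, 0.865 for Psmd9, 0.846 for Psmb2 and 0.837 for Psmc3ip. In f/f 1 it was 0.943 for Psma2, 0.879 for Psma4, 0.872 for Psmc4 and 0.839 for Psma3. The remaining one was dIEC 2 for Psmc6, with 0.887.

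The TNF response differed between dIEC and f/f by limma's test of the difference for Psmd12 (dIEC minus f/f, 0.27 on the log2 scale), Psmd1 (0.24), Psmc2 (0.22) and Psmc1 (0.19). All 4 calls were lost when certain single libraries were left out.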

How the results depend on the processing

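No called gene among the 32 changed direction under the alternatives run. Calls kept under every alternative were 9 of 15 with TNF in dIEC, 11 of 19 with TNF in f/f, 0 of 5 between genotypes with TNF and 0 of 4 for the difference of responses. Genotype calls without TNF (0) became 1 with sample weights and 1 with a term for the 4 libraries that stood apart. Those with TNF (5) became 0 with quantile normalization, 3 with median-of-ratios scaling, 13 with weights, 8 without these 4 libraries and 12 with the term. Calls with TNF in dIEC (15) became 25 with weights, where 73.4% of all rows were called. Those of the difference (4) became 0, 0, 7 and 8 with quantile normalization, median-of-ratios scaling, weights and the term. The median change with TNF became -0.22 in f/f and -0.10 in dIEC under median-of-ratios scaling and -0.060 in dIEC with weights, and the median difference 0.10 with weights and 0.092 without the 4 libraries. The causes were not tested beyond the settings named.

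Leaving out 1 library at a time gave 0 to 4 calls for the difference, 14 to 17 in dIEC and 17 to 20 in f/f with TNF, 4 to 5 between genotypes with TNF and 0 to 0 without. The medians ranged over 0.10 to 0.18, -0.04 to 0.00, -0.18 to -0.15, 0.10 to 0.13 and -0.06 to -0.01 in that order. Over all rows these fits called 240 to 450 for the difference, 5133 to 6262 in dIEC and 4499 to 5781 in f/f with TNF. Between genotypes they called 537 to 867 with TNF and 139 to 304 without. With the number as a replicate block within genotype, 20 genes were called in dIEC (10 higher, 10 lower) and 24 in f/f (3 higher, 21 lower), with all 15 and 19 calls of the fit without the block among them, and 6 for the difference. Over all rows that block called 70.8% in dIEC, 66.1% in f/f and 11.1% for the difference. A replicate block by number over all groups gave 16 calls in dIEC, 19 in f/f, 6 and 0 between genotypes with and without TNF and 4 for the difference, and no call was lost under either block. Over all rows the block by number called 56.9% in dIEC and 50.7% in f/f. It called 7.91% and 2.76% between genotypes with and without TNF and 3.99% for the difference. Of all rows, 258 were called between genotypes without TNF, against 1781 with weights, 709 without the 4 libraries and 710 with the term. With TNF 721 were called, against 2556, 1505 and 1940, and for the difference 365, against 1920, 967 and 1170 and 1231 with the block. Quantile normalization and median-of-ratios scaling called 669 and 712 rows between genotypes with TNF, and 367 and 403 for the difference. With TNF, 3702 rows rose and 2195 fell in dIEC, against 2552 and 2939 after quantile normalization and 2773 and 2875 after median-of-ratios scaling. In f/f 2986 rose and 2249 fell, against 2346 and 2844 after the first scaling and 2588 and 2713 after the second. Depth being unknown, the precision of low genes such as Psmd9 and Psmc3ip cannot be stated.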

Other observations

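Of the 32 genes, 8 have an exon that overlaps one of another gene in GENCODE vM21, and 5 of these overlap a protein-coding gene. Psmd1 overlaps Htr2b and Gm21972, Psmc3 overlaps Slc39a13, Psmd13 overlaps Sirt3, Psma4 overlaps AY074887 and Psmc3ip overlaps Mlx. The use of strand in the counting is not known, so reads of these pairs cannot be told apart, which holds for Psmd1, called in 3 comparisons. Psmd1 shares a strand with 1 of its partners. Psmc1, Psmc2, Psmd12 and Psmd7 have no such overlap.

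Psmc1 is at chr12:100110154-100123405, Psmc2 at chr5:21785283-21803787, Psmd1 at chr1:86064387-86139151 and Psmd12 at chr11:107479484-107504362, all on the plus strand of mm10. Psmd7 is at chr8:107580381-107588464 on the minus strand. Psma3 is at chr12:70974621-70996347 on the plus strand.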
